A study of Mus musculus with 6 samples.

Results

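The Notch members are 10 mouse genes of Notch signaling, chosen by their symbols among the 52636 genes counted in differentiating embryoid bodies (EBs). They comprise the receptors Notch1, Notch2, and Notch3, the ligands Dll1, Dll3, and Jag1, the glycosyltransferase Lfng, and the target genes Hes1, Hes5, and Hey1, and each symbol matched 1 gene identifier. EBs are aggregates of embryonic stem cells (ESCs) that begin to form the germ layers once they are moved into differentiation medium. WT EBs came from the parental mouse ESC line E14, and Tnfaip2-/- EBs from 1 selected clone of this line in which CRISPR-Cas9 editing of Tnfaip2 left a premature stop codon. Both were kept in hanging drops for 3 days and then in differentiation medium for 3 days, and RNA was sequenced from 3 samples per genotype, to ask how the loss of Tnfaip2 alters the transcriptome of EBs. Between 21765931 and 23804489 counts were assigned to genes in each sample. With 1 clone compared to its parental line, the genotype cannot be told apart from other properties of that clone. The p-values and intervals below rest on the spread among the 3 samples of each line, which holds no spread between clones.

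Tnfaip2 itself had counts of 7, 4, and 7 in WT and of 0, 2, and 2 in Tnfaip2-/- samples. All 3 Tnfaip2-/- samples were below all 3 WT samples, at counts too low for the gene to be tested, and these counts do not serve as a check of the genotype labels.

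Notch receptors are membrane proteins that are cleaved after a Delta or Jagged ligand on a neighboring cell binds them, and the released intracellular part joins the DNA-binding protein RBPJ to activate genes such as the Hes and Hey repressors. LFNG adds sugars to the receptors and thereby tunes how they respond to each class of ligand. In the early embryo the pathway is best known for the periodic segmentation of presomitic mesoderm and for keeping neural progenitors from differentiating.

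Promoter windows of RefSeq (GRCm38.p6), each with 250 bases before and 50 bases after an annotated start, were read for Notch1, Notch2, Notch3, Dll1, Dll3, Jag1, Lfng, and Hes5, that is 8 of the 10 members with 9 windows, Dll1 having more than 1. Hes1 and Hey1 were not among them. Both strands were searched for GTGGGAA, the core of the sequence that RBPJ binds, for the shorter TGGGAA that it contains, and for the E-box CACGTG, which Hes and Hey proteins and other basic helix-loop-helix factors can bind. Among all 32851 windows of 300 bases, 6.38% held GTGGGAA, 25.6% held TGGGAA, and 7.15% held CACGTG. The first of these was present in the windows of 2 members, Lfng and Hes5, whose stretches before the start are therefore shown. The former encodes a modifier and the latter is a textbook target of the pathway. Capitals mark GTGGGAA, its reverse complement TTCCCAC, and CACGTG.
Lfng: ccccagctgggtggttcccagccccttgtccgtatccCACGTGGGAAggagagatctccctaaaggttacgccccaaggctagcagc
Hes5: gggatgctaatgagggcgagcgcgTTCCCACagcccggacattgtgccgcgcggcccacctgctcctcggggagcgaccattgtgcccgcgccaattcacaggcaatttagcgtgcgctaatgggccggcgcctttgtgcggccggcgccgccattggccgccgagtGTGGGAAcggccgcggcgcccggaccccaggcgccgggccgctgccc
The Lfng stretch lies at chr5:140607192-140607278 on the forward strand, from 149 to 63 bases before the start, outside annotated exons. Its GTGGGAA shares the letters GTG with a CACGTG. The Hes5 stretch lies at chr4:154960673-154960886 on the forward strand, from 250 to 37 bases before the start, and holds 1 match on each strand. Its downstream part overlaps an exon of the noncoding gene Gm20421 on the opposite strand. None of the 3 motifs was found in the windows of the other 6 members. A match is a description of letters, and binding was not measured.

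Of the 10 members, 9 passed the expression filter and Hes5 did not. In Tnfaip2-/- EBs, Hes1, Dll1, and Lfng were each lower by more than 2-fold, Notch1 was 1.77-fold higher, and Notch3 was slightly lower. Notch2, Dll3, Jag1, and Hey1 did not pass the test. A gene is called here when its adjusted p is under 0.05 in edgeR's quasi-likelihood test with Benjamini-Hochberg adjustment over all 17849 tested genes. By this rule 5 of the 9 tested members were called, 55.6%, whereas 67.7% of all tested genes were called, so that the number of calls does not set the members apart. The call was lower for 4 members and higher for 1, against 33.7% and 34.0% of all tested genes. A call together with a change of at least 2-fold was made for 3 members, all lower, compared with 12.0% of all tested genes in either direction, 4.51% lower and 7.46% higher. In the stricter test for changes beyond 1.5-fold, Notch1, Dll1, Lfng, and Hes1 were called, 4 of the 9 members, versus 15.7% of all tested genes. The WT and Tnfaip2-/- samples did not overlap in counts per 1000000 counts (CPM, scaled with TMM factors) for 5 of the 9 tested members and for 69.4% of all tested genes. The median log2 fold change, Tnfaip2-/- minus WT, was -0.21 over the tested members and 0.0030 over all tested genes. These are bulk samples, in which fewer cells of a type and less RNA per cell cannot be told apart.

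**Figure D1:**
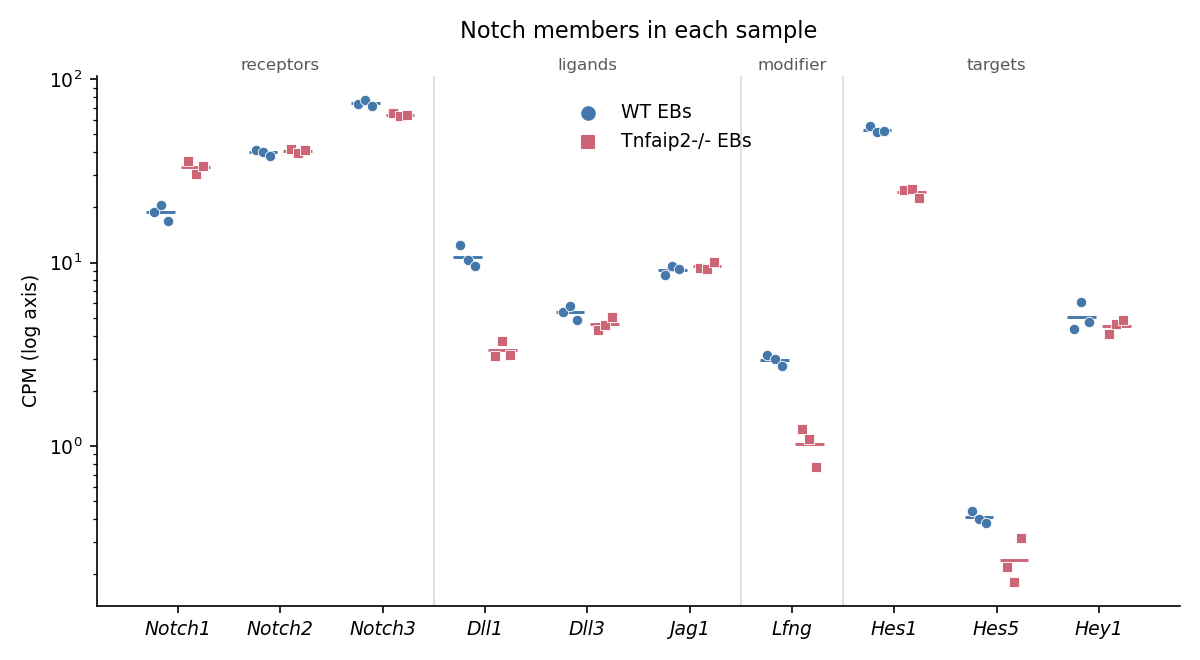
CPM of the 10 members on a log axis, with 1 point per sample (circles, WT EBs; squares, Tnfaip2-/- EBs) and a line at the mean of each genotype. The points of the genotypes are apart for Notch1, Notch3, Dll1, Lfng, Hes1, and Hes5 and overlap for Notch2, Dll3, Jag1, and Hey1; Hes5 lies below 0.5 CPM in all 6 samples.

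Among the receptors, Notch1 (ENSMUSG00000026923, chr2:26457903-26516663, GRCm38), which is required for somite formation in the mouse embryo, had counts of 429, 461, and 398 in WT and of 809, 668, and 744 in Tnfaip2-/- samples. Every Tnfaip2-/- sample exceeded every WT sample. Expression was 18.8 ± 1.83 CPM in WT EBs and 33.2 ± 2.57 CPM in Tnfaip2-/- EBs (SD, n = 3). The log2 fold change was 0.82 (standard error, SE, 0.0614, edgeR quasi-likelihood adjusted p = 3.16e-16), and its 95% interval runs from 1.62-fold to 1.93-fold higher. Noncoding genes on the opposite strand overlap 7.5% and 2.91% of the exon bases of Notch1. The library kit does not keep the strand, so that reads of such shared bases cannot be assigned to 1 gene, and counts of overlapped genes may be too low.

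Notch3 (ENSMUSG00000038146, chr17:32120820-32166852) was the most abundant receptor per kb of exon length. It had counts of 1664, 1727, and 1671 in WT and of 1481, 1377, and 1419 in Tnfaip2-/- samples. The samples of the genotypes did not overlap, but the distance between them was small. Mean CPM values were 73.9 ± 3.03 in WT and 64.0 ± 1.15 in Tnfaip2-/- samples (SD, n = 3), so that expression fell by a log2 fold change of -0.21 (SE 0.0376, edgeR quasi-likelihood adjusted p = 5.06e-06). It was not called against a fold change of 1.5. Notch2 (ENSMUSG00000027878, chr3:98013527-98150361) had counts of 937, 895, and 899 in WT and of 941, 868, and 907 in Tnfaip2-/- samples, with overlapping samples. Its log2 fold change was 0.03 (edgeR quasi-likelihood adjusted p = 0.582), with a 95% interval from -0.06 to 0.12, so that a change beyond 1.09-fold in either direction lies outside this interval.

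Notch4, the receptor outside the members, which is best known from endothelial cells, had counts of 277, 258, and 263 in WT and of 69, 87, and 86 in Tnfaip2-/- samples. It fell 3.21-fold, with a log2 fold change of -1.68 (SE 0.103, edgeR quasi-likelihood adjusted p = 2.81e-19). The summed counts of the 4 receptors were 3307, 3341, and 3231 in WT and 3300, 3000, and 3156 in Tnfaip2-/- samples. The sum over the receptors thus overlapped between the genotypes (144 ± 6.03 and 142 ± 4.19 CPM, SD, n = 3, exact two-sided permutation p = 0.5), whereas its makeup was apart. Notch1 made up 13.03% ± 0.742 of the receptor counts in WT EBs and 23.5% ± 1.13 in Tnfaip2-/- EBs (SD, n = 3). The share of Notch3 was 51.2% ± 0.801 and 45.2% ± 0.567, and that of Notch4 was 8.08% ± 0.331 and 2.57% ± 0.426. Notch2 took 27.6% ± 0.788 of the counts in WT EBs and 28.7% ± 0.209 in Tnfaip2-/- EBs. The samples of the genotypes did not overlap for any of these shares (exact two-sided permutation p = 0.1 for each, the smallest that 3 samples against 3 can give). These shares are of counts, to which longer genes add more. Per kb of exon length the mean shares were 8.46% and 16.1% for Notch1, 23.7% and 26.1% for Notch2, 58.6% and 54.7% for Notch3, and 9.27% and 3.12% for Notch4. The difference of the Notch2 share, 1.08 percentage points, was the smallest. It was 0.65 without WT replicate 2 and 2.35 per kb of exon length. The exact permutation p was 0.2 without any 1 of the Tnfaip2-/- replicates, with the remaining samples still apart and fewer permutations possible.

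Among the ligands, Dll1 (ENSMUSG00000014773, chr17:15367354-15376872), a Delta ligand expressed in presomitic mesoderm and nascent neurons, had the lowest log2 fold change of all members. It had counts of 281, 231, and 226 in WT and of 70, 82, and 70 in Tnfaip2-/- samples. The lowest WT sample was well above the highest Tnfaip2-/- sample. Mean CPM values were 10.8 ± 1.45 in WT and 3.33 ± 0.363 in Tnfaip2-/- samples (SD, n = 3), so that expression fell by a log2 fold change of -1.69 (SE 0.113, edgeR quasi-likelihood adjusted p = 6.05e-18). The 95% interval runs from 2.76-fold to 3.79-fold lower and overlaps that of Lfng given below. Without Tnfaip2-/- replicate 1 the order of these 2 genes turned, with -1.64 for Dll1 and -1.66 for Lfng. A noncoding gene on the opposite strand overlaps 20.6% of the exon bases of Dll1.

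Dll3 (ENSMUSG00000003436, chr7:28293553-28302238), a divergent Delta protein needed for somite boundaries, had counts of 122, 130, and 115 in WT and of 97, 100, and 112 in Tnfaip2-/- samples. The ranges of the genotypes overlapped in CPM. Its log2 fold change of -0.21 (edgeR quasi-likelihood adjusted p = 0.102) had a 95% interval from -0.44 to 0.02. Without WT replicate 3 the adjusted p was 0.0493, under the threshold, and over all alternatives it ranged from 0.0493 to 0.323. Jag1 (ENSMUSG00000027276, chr2:137081456-137116644), a Jagged ligand with roles in vessels and sensory organs, had counts of 195, 215, and 216 in WT and of 212, 202, and 224 in Tnfaip2-/- samples. Its samples overlapped, with expression of 9.13 ± 0.502 and 9.55 ± 0.479 CPM (SD, n = 3). The adjusted p was 0.509 in edgeR's quasi-likelihood test, and the 95% interval of the ratio of Tnfaip2-/- to WT ran from 0.929 to 1.18.

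Jag2, the other Jagged ligand, had counts of 621, 670, and 685 in WT and of 1045, 1089, and 1145 in Tnfaip2-/- samples. It rose 1.70-fold (log2 fold change 0.77, SE 0.0489, edgeR quasi-likelihood adjusted p = 1.18e-18). Dll4, a Delta ligand of sprouting vessels, was near the floor of 3 counts, with 1, 4, and 1 counts in WT and 0, 0, and 3 in Tnfaip2-/- samples. Of the summed counts of the 5 ligands, Dll1 took 19.9% ± 2.72 in WT EBs and 4.996% ± 0.536 in Tnfaip2-/- EBs, and Jag2 took 53.2% ± 2.13 and 73.7% ± 0.273 (SD, n = 3). The shares of Dll3 were 9.88% ± 0.583 and 6.94% ± 0.235, and those of Jag1 were 16.9% ± 0.759 and 14.3% ± 0.591. The genotypes did not overlap for these 4 shares (exact two-sided permutation p = 0.1 for each, the smallest possible). With counts divided by exon length, the Jag1 shares overlapped (difference -0.669 percentage points in place of -2.52, exact two-sided permutation p = 0.4), and neither Jag1 nor Dll3 itself passed the test, while Dll1 fell and Jag2 rose. On this per kb scale the mean share of Jag2 was 40.7% in WT EBs and 63.4% in Tnfaip2-/- EBs, and that of Dll1 was 25.1% and 7.10%. The summed ligand level was 54.2 ± 1.49 CPM in WT EBs and 66.7 ± 3.73 CPM in Tnfaip2-/- EBs (SD, n = 3, exact two-sided permutation p = 0.1).

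**Figure D2:**
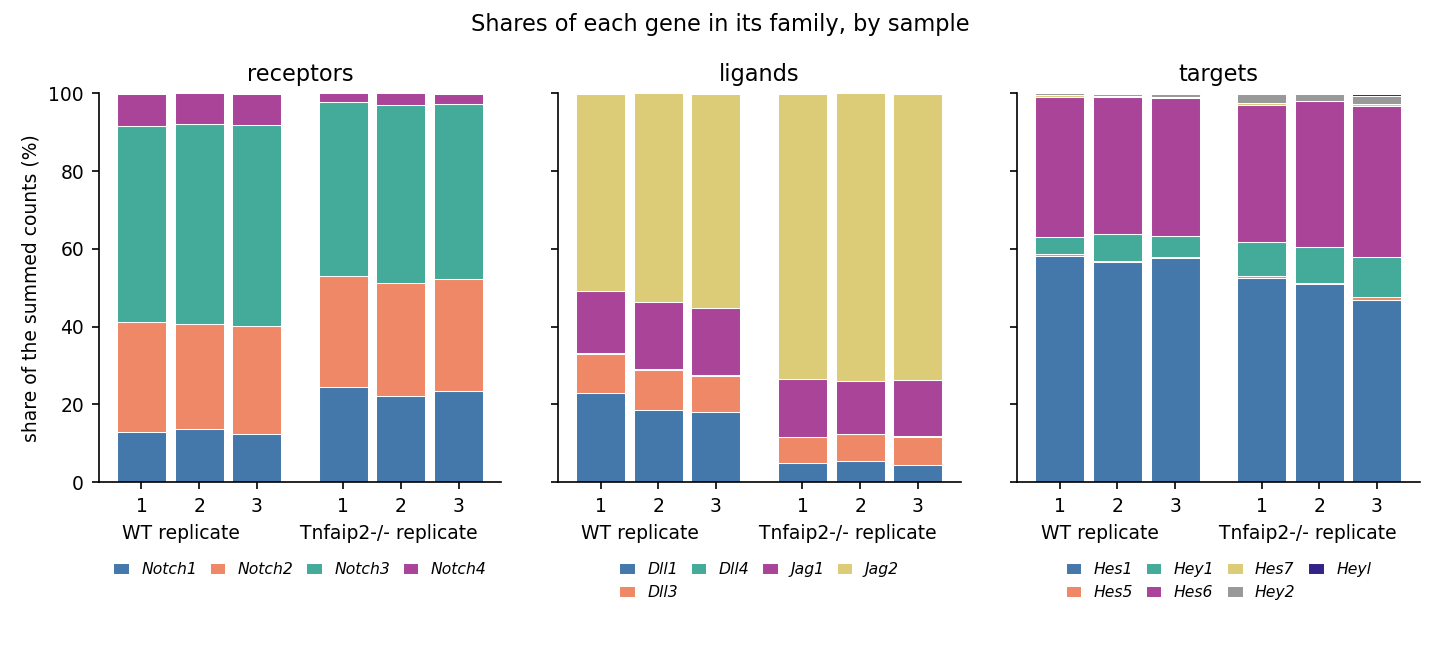
Share of each gene in the summed counts of its family, in percent, for each of the 6 samples. Receptors, ligands, and genes of the Hes and Hey family (the panel titled targets, which includes Hes6) are in separate panels. In Tnfaip2-/- EBs the Notch1 share is 23.5% in place of 13.03%, the Jag2 share 73.7% in place of 53.2%, and the Hes1 share 50.2% in place of 57.4%.

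Lfng (ENSMUSG00000029570, chr5:140607320-140615545) encodes the Fringe enzyme that oscillates with the segmentation clock. Downstream of the stretch shown above, it gave counts of 71, 67, and 64 in WT and of 28, 24, and 17 in Tnfaip2-/- samples. All WT samples had more than double the counts of any Tnfaip2-/- sample. Mean CPM values were 2.95 ± 0.208 in WT and 1.03 ± 0.239 in Tnfaip2-/- samples (SD, n = 3), so that expression fell by a log2 fold change of -1.51 (SE 0.191, edgeR quasi-likelihood adjusted p = 2.27e-09). At these low counts the 95% interval is wide, from 2.18-fold to 3.71-fold lower. The related Fringe genes did not pass the test. Mfng had a log2 fold change of 0.16 (edgeR quasi-likelihood adjusted p = 0.118) and Rfng one of -0.13 (0.0908). Per kb of exon length, Lfng was the least abundant Fringe gene in both genotypes, with 1.18 CPM per kb in WT EBs against 2.77 for Mfng and 6.18 for Rfng, and 0.412 against 3.09 and 5.65 in Tnfaip2-/- EBs.

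Among the target genes, Hes1 (ENSMUSG00000022528, chr16:30064384-30067796), a repressor that oscillates in ESCs and neural progenitors, was the most abundant member per kb of exon length. It had counts of 1253, 1152, and 1230 in WT and of 564, 555, and 497 in Tnfaip2-/- samples. Each Tnfaip2-/- sample was lower than each WT sample. Expression fell from 53.0 ± 2.01 to 24.2 ± 1.56 CPM (SD, n = 3), which is 2.19-fold, with a 95% interval from 2.05-fold to 2.35-fold. The log2 fold change was -1.13 (SE 0.0493, edgeR quasi-likelihood adjusted p = 8.76e-25).

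Hes5 (ENSMUSG00000048001, chr4:154960923-154962371), which is activated by Notch in neural progenitors, had counts of 10, 9, and 9 in WT and of 5, 4, and 7 in Tnfaip2-/- samples. The samples did not overlap, yet at 0.409 ± 0.0297 and 0.239 ± 0.0686 CPM (SD, n = 3) the gene was below the expression filter. Kept in the fit by dropping that filter, it had a log2 fold change of -0.77 (SE 0.43, edgeR quasi-likelihood adjusted p = 0.156), so that a difference was not detectable at this depth. With DESeq2 the adjusted p was 0.377. The exon of Gm20421 named above overlaps 31.8% of the exon bases of Hes5, whose counts may thus be too low. Hey1 (ENSMUSG00000040289, chr3:8663359-8667256), a repressor with roles in vessels and the heart, had counts of 98, 137, and 112 in WT and of 93, 101, and 108 in Tnfaip2-/- samples, with overlapping samples. The 95% interval of its ratio of Tnfaip2-/- to WT ran from 0.751 to 1.06 (edgeR quasi-likelihood adjusted p = 0.247).

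The other genes of the Hes and Hey family moved in both directions. Hes6, which counteracts Hes1 and promotes neuronal differentiation, had counts of 777, 721, and 764 in WT and of 377, 410, and 411 in Tnfaip2-/- samples (log2 fold change -0.88, edgeR quasi-likelihood adjusted p = 1.92e-18). Hes3 had counts of 32, 47, and 32 in WT and of 7, 4, and 5 in Tnfaip2-/- samples, with a log2 fold change of -2.73 (edgeR quasi-likelihood adjusted p = 3.15e-10). Hey2 was higher, with 9, 8, and 15 counts in WT and 24, 19, and 22 in Tnfaip2-/- samples (log2 fold change 1.05, SE 0.3, edgeR quasi-likelihood adjusted p = 0.00201). Hes7, a gene of the segmentation clock, had counts of 8, 6, and 5 in WT and of 8, 1, and 7 in Tnfaip2-/- samples. Heyl had at most 6 counts in any sample, and Hes2 at most 3. These 3 genes were not tested. Hes2 and Hes3 were not part of the family sum or of the shares taken from it. The summed level of Hes1, Hes5, Hey1, Hes6, Hes7, Hey2, and Heyl was 92.3 ± 2.39 CPM in WT EBs and 48.2 ± 1.39 CPM in Tnfaip2-/- EBs (SD, n = 3, exact two-sided permutation p = 0.1, the smallest possible). Hes1 made up 57.4% ± 0.789 of their counts in WT EBs and 50.2% ± 2.89 in Tnfaip2-/- EBs, and Hey1 5.51% ± 1.11 and 9.38% ± 0.774 (SD, n = 3, exact two-sided permutation p = 0.1 for both). A share also moves with the other genes of the sum, and Hey1 itself did not pass the test, while Hes1 and Hes6 fell. For Hey2 the share was 0.504% ± 0.172 and 2.02% ± 0.254 (SD, n = 3, exact two-sided permutation p = 0.1). The difference was 1.52 percentage points for Hey2 and 3.87 for Hey1, and per kb of exon length it was 0.676 and 2.48. The shares of Hes6, 35.7% ± 0.322 and 37.2% ± 1.87, overlapped between the genotypes (difference 1.46 percentage points, exact two-sided permutation p = 0.4). They were apart per kb of exon length (2.49, exact permutation p = 0.1) and without Tnfaip2-/- replicate 1 (2.47, exact permutation p = 0.1), and the difference was 0.634 without Tnfaip2-/- replicate 3. Overlap was also found for the shares of Hes5, Hes7, and Heyl, all under 1% in every sample.

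The order of the members by level was read per kb of exon length. In WT EBs the order was Hes1 (26.0 ± 0.985 CPM per kb, SD, n = 3), Notch3 (9.13 ± 0.374), Notch2 (3.70 ± 0.143), Dll1 (2.55 ± 0.343), Dll3 (1.88 ± 0.16), Jag1 (1.57 ± 0.0861), Hey1 (1.55 ± 0.286), Notch1 (1.32 ± 0.128), Lfng (1.18 ± 0.0829), and Hes5 (0.30 ± 0.0218). The ranges over samples overlapped between Jag1 and Hey1, between Hey1 and Notch1, and between Notch1 and Lfng, and not between the other neighbors. In Tnfaip2-/- EBs, Hes1 (11.9 ± 0.768 CPM per kb, SD, n = 3), Notch3 (7.91 ± 0.143), and Notch2 (3.77 ± 0.0851) kept the first places. Notch1 moved up to rank 4 from rank 8, at 2.33 ± 0.18 CPM per kb, and Dll1 down to rank 8 from rank 4, at 0.789 ± 0.0861. Between them stood Jag1 (1.64 ± 0.0821), Dll3 (1.62 ± 0.138), and Hey1 (1.39 ± 0.121), and after Dll1 came Lfng (0.412 ± 0.0956) and Hes5 (0.176 ± 0.0503). Only the ranges of Jag1 and Dll3 overlapped there between neighbors. Hes1 was above 84.2% of all tested genes in WT EBs and above 70.8% in Tnfaip2-/- EBs on this scale, and Notch1 above 27.6% and 36.7%.

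The genes with the most similar profiles over the 6 samples were sought among 15623 tested genes outside the lists. All of these had a mean of at least 1 CPM. The measure was the root mean square difference of log2 CPM values centred on each gene's mean. For Notch1, the called member with the highest log2 fold change, the nearest genes were Cyb5d2 (0.0435), Tmtc1 (0.0438), and Cpne8 (0.0476). Their log2 fold changes were 0.90, 0.85, and 0.80. For Dll1, with the lowest, the nearest were Pcolce (0.0935), Tcl1 (0.0988), and Frmd4b (0.0997), with log2 fold changes of -1.62, -1.82, and -1.66. Shared regulation was not tested. A difference under 0.2 was found for 1249 genes with Notch1 and for 79 genes with Dll1.

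Beyond the members, 47 further genes of the pathway were listed, of which 42 were tested. Of these, 14 were called higher and 18 lower in Tnfaip2-/- EBs, together 76.2%, with a median log2 fold change of -0.058. A change of at least 2-fold was called for 9 of them, 4 higher and 5 lower, 21.4%. Of all tested genes, 67.7% were called and 12.0% were called with this change.

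The nuclear partners of the receptors were mostly lower. Rbpj, the DNA-binding partner, had counts of 6229, 6184, and 6373 in WT and of 4878, 4531, and 4674 in Tnfaip2-/- samples, and fell 1.30-fold (log2 fold change -0.38, SE 0.0262, edgeR quasi-likelihood adjusted p = 2.29e-17). Of the 7 genes of this group, which includes the Mastermind coactivators and histone acetyltransferases, 6 were called lower, against 33.7% of all tested genes, and Ep300 was called higher. The lower call of Snw1 (log2 fold change -0.095, edgeR quasi-likelihood adjusted p = 0.0326) was lost without WT replicate 1 (0.0837), without Tnfaip2-/- replicate 2 (0.109), and without Tnfaip2-/- replicate 3 (0.0531). It was also lost with DESeq2 (0.11), library sizes only (0.138), upper quartile normalization (0.119), and the replicate block (0.0555), within a range from 0.0156 to 0.138 over all alternatives. The coding gene Slirp on the opposite strand overlaps 44.3% of the exon bases of Snw1, whose counts may thus be too low. Among 9 listed modulators, Dtx3 and Dtx4, which encode Deltex proteins, changed by more than 2-fold. Dtx3 fell from 111 ± 0.941 to 41.3 ± 1.3 CPM (SD, n = 3, log2 fold change -1.43), and Dtx4 from 18.6 ± 0.806 to 6.93 ± 0.0945 CPM (log2 fold change -1.42). Nrarp, a feedback inhibitor induced by Notch, had counts of 26, 20, and 33 in WT and of 36, 34, and 41 in Tnfaip2-/- samples, thus higher while Hes1 was lower. Its log2 fold change of 0.53 had an adjusted p of 0.0276 in edgeR's quasi-likelihood test. The call was lost without WT replicate 1 (adjusted p = 0.0618), without WT replicate 2 (0.158), without Tnfaip2-/- replicate 3 (0.117), and with DESeq2 (0.194), within a range from 0.0142 to 0.194 over all alternatives. An antisense gene overlaps 79.4% of the exon bases of Nrarp, whose counts may thus be too low.

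Among genes that act on the ligands, 3 of 4 were called, all higher, where 67.7% of all tested genes were called and 34.0% were called higher. Neurl1b, a ubiquitin ligase of this group, rose 2.58-fold from 0.951 ± 0.228 to 2.46 ± 0.322 CPM (SD, n = 3). Of 9 genes for receptor cleavage, 4 were called higher and 3 lower, a split near that of all tested genes. Of these calls, those of Ncstn and Psenen were lost without WT replicate 1 (adjusted p = 0.0511 and 0.055), and that of Psenen also with DESeq2 (0.0632). Aph1b and Aph1c, which encode alternative subunits of gamma-secretase, had log2 fold changes of 1.10 and 1.17, but they are near-identical neighbors on chromosome 9, and their separate values are uncertain. Dlk1, a noncanonical ligand, had counts of 115, 121, and 122 in WT and of 31, 29, and 30 in Tnfaip2-/- samples (log2 fold change -1.95, SE 0.151, edgeR quasi-likelihood adjusted p = 1.08e-15).

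**Figure D3:**
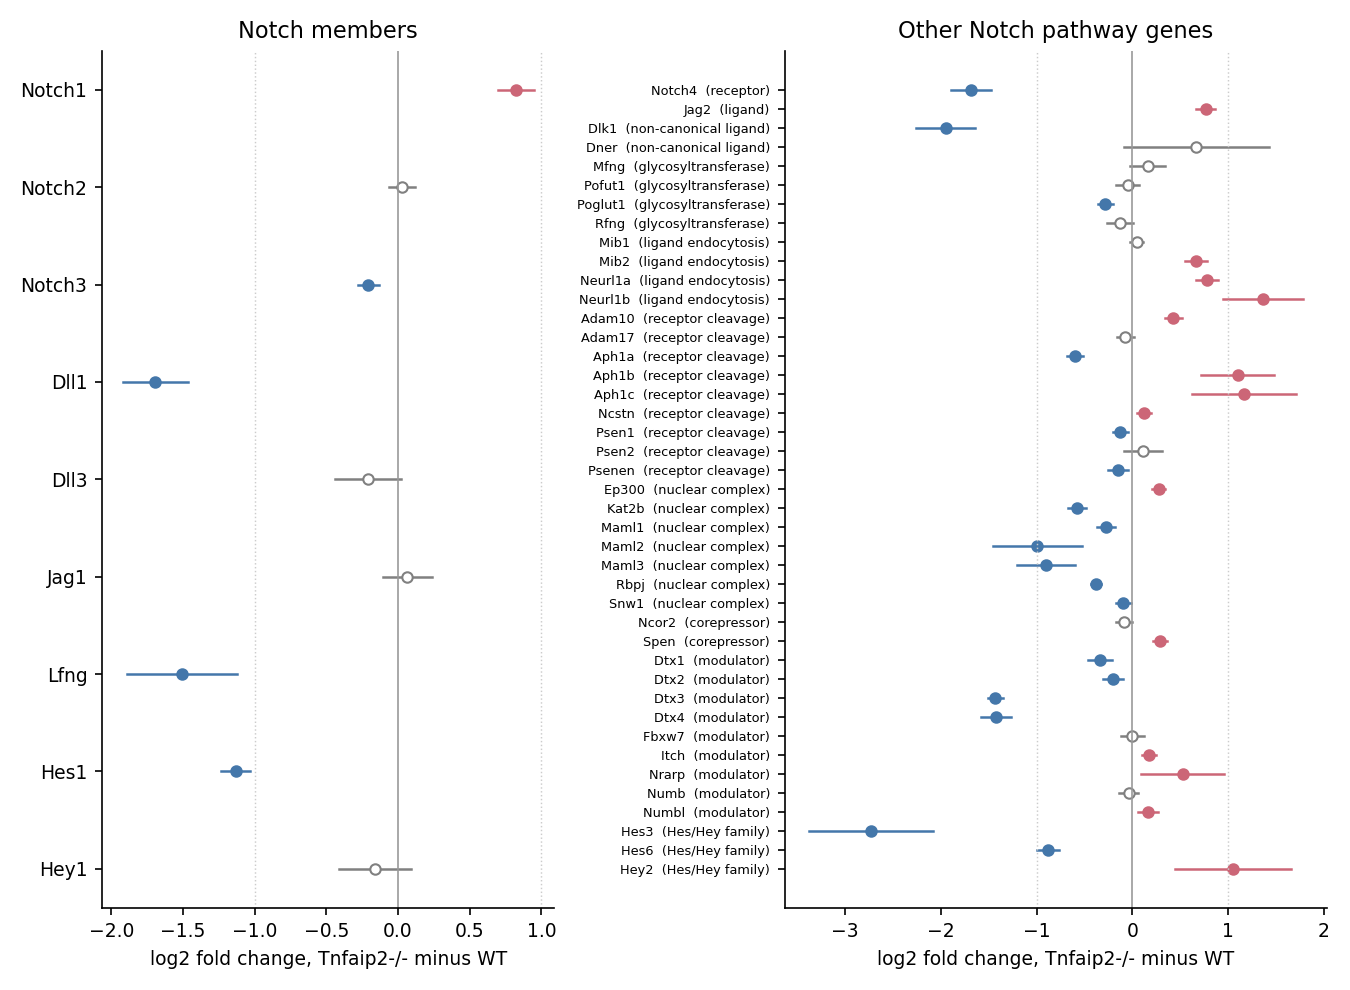
Log2 fold changes, Tnfaip2-/- minus WT, with their 95% intervals for the 9 tested members (left) and the 42 other tested pathway genes (right), where filled points are called genes (red, higher; blue, lower) and open gray points did not pass the test. Dotted lines mark a 2-fold change; Dll1 lies at -1.69, Lfng at -1.51, Hes1 at -1.13, and Notch1 at 0.82.

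Markers of the cell types in which the pathway is best known were measured in the same samples. Their calls stand against 67.7% called, 34.0% higher and 33.7% lower, of all tested genes. Of 12 markers of primitive streak and presomitic mesoderm, 10 were tested, 9 were called lower and 0 higher. Their summed level was 94.2, 93.2, and 92.4 CPM in WT and 23.1, 20.6, and 24.3 CPM in Tnfaip2-/- samples. T, the most abundant of them per kb in WT EBs but not in Tnfaip2-/- EBs, had counts of 774, 732, and 866 in WT and of 5, 3, and 1 in Tnfaip2-/- samples. Msgn1, which marks presomitic mesoderm and was not tested, had counts of 9, 8, and 3 in WT samples and was at 0 in all Tnfaip2-/- samples. Tbx6, another marker of this tissue, had counts of 45, 26, and 42 in WT and of 25, 23, and 29 in Tnfaip2-/- samples, with overlapping samples (log2 fold change -0.51, edgeR quasi-likelihood adjusted p = 0.0368). This call was lost with DESeq2 (adjusted p = 0.206), without WT replicate 1 (0.194), without WT replicate 3 (0.107), without Tnfaip2-/- replicate 1 (0.0874), and without Tnfaip2-/- replicate 2 (0.106). Mesp2, a segmentation gene that Notch activates together with Tbx6, had counts of 24, 27, and 29 in WT and of 25, 32, and 29 in Tnfaip2-/- samples (edgeR quasi-likelihood adjusted p = 0.587).

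Of 11 neural progenitor markers, 7 were tested and all 7 were called lower. Their summed level was 124.3, 124.5, and 117 CPM in WT and 51.4, 50.7, and 50.7 CPM in Tnfaip2-/- samples. Sox1 was the most abundant of them per kb and had a log2 fold change of -1.61. The other defining markers Pax6 and Nes had log2 fold changes of -0.82 and -0.32, and Zic1, which changed most, had counts of 111, 94, and 107 in WT and of 2, 0, and 2 in Tnfaip2-/- samples.

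For the endothelial markers, 4 were called higher and 3 lower among 7 tested of 9 listed. The sum was 34.7, 34.5, and 33.8 CPM in WT and 43.7, 47.0, and 50.2 CPM in Tnfaip2-/- samples, mostly from Pecam1 (log2 fold change 0.45), which ESCs also express. Kdr, which changed most, had counts of 34, 38, and 32 in WT and of 5, 6, and 3 in Tnfaip2-/- samples, Tie1 had a log2 fold change of 1.23, and Cdh5 had between 3 and 10 counts per sample. Of 10 mural and mesenchymal markers, 7 were tested, with 2 higher and 2 lower. Their sum was 24.05, 23.0, and 22.2 CPM in WT and 23.3, 22.8, and 22.4 CPM in Tnfaip2-/- samples, with Des as the most abundant gene (log2 fold change 0.02, edgeR quasi-likelihood adjusted p = 0.837). Rgs5 had at most 7 counts in a sample, and Pdgfrb, Myh11, and Col1a2 had log2 fold changes of 0.36, 1.35, and -1.50. Pdgfrb lost its call with DESeq2 (adjusted p = 0.0974). All 8 endoderm markers were tested, with 1 higher and 5 lower. Their sum was 73.3, 72.2, and 74.2 CPM in WT and 60.9, 58.8, and 62.5 CPM in Tnfaip2-/- samples, with Dab2 as the most abundant gene per kb (log2 fold change -0.17). Sox17, Foxa2, and Gata4 had log2 fold changes of 0.45, -1.16, and -0.04, of which that of Gata4 did not pass the test (edgeR quasi-likelihood adjusted p = 0.715). Sox17 lost its call without WT replicate 3 (adjusted p = 0.18), without Tnfaip2-/- replicate 3 (0.111), and with DESeq2 (0.122). Afp had counts of 21, 16, and 25 in WT and of 1, 0, and 2 in Tnfaip2-/- samples.

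All 10 pluripotency markers were called, 4 higher and 6 lower, where 34.0% and 33.7% of all tested genes were. Their sum was 3725, 3666, and 3725 CPM in WT and 3283, 3311, and 3300.1 CPM in Tnfaip2-/- samples. Dppa5a was the most abundant of them per kb (log2 fold change -0.69). Among the defining markers Pou5f1 had a log2 fold change of -0.86, Nanog of 0.26, and Sox2 of 0.23. Klf4 changed most (-1.49), and the largest rises were those of Klf2 (0.98) and Zfp42 (0.90). The mean of Dppa5a was 973 CPM in WT EBs and 602 CPM in Tnfaip2-/- EBs, that of Pou5f1 was 759.7 and 419 CPM. The call of Utf1 (log2 fold change -0.064, edgeR quasi-likelihood adjusted p = 0.0465) was lost without WT replicate 1 (0.192), without WT replicate 2 (0.108), and without Tnfaip2-/- replicate 1 (0.316). It was also lost with DESeq2 (0.0885) and 4 other alternatives, and Utf1 was not called against a fold change of 1.5. That test left aside, its adjusted p ranged from 0.00119 to 0.316 over the alternatives. Apart from Msgn1 in Tnfaip2-/- EBs, none of the defining markers of the 6 lists was at 0 in all samples of a genotype. The summed levels of 4 lists (streak and presomitic mesoderm, neural progenitors, endoderm, and pluripotency) were lower in every Tnfaip2-/- sample than in any WT sample. The same held for the members Notch3, Dll1, Lfng, Hes1, and Hes5. The endothelial sum was higher in every Tnfaip2-/- sample, and the mural and mesenchymal sums overlapped. The part of these cell types in the values of the members was not tested.

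**Figure D4:**
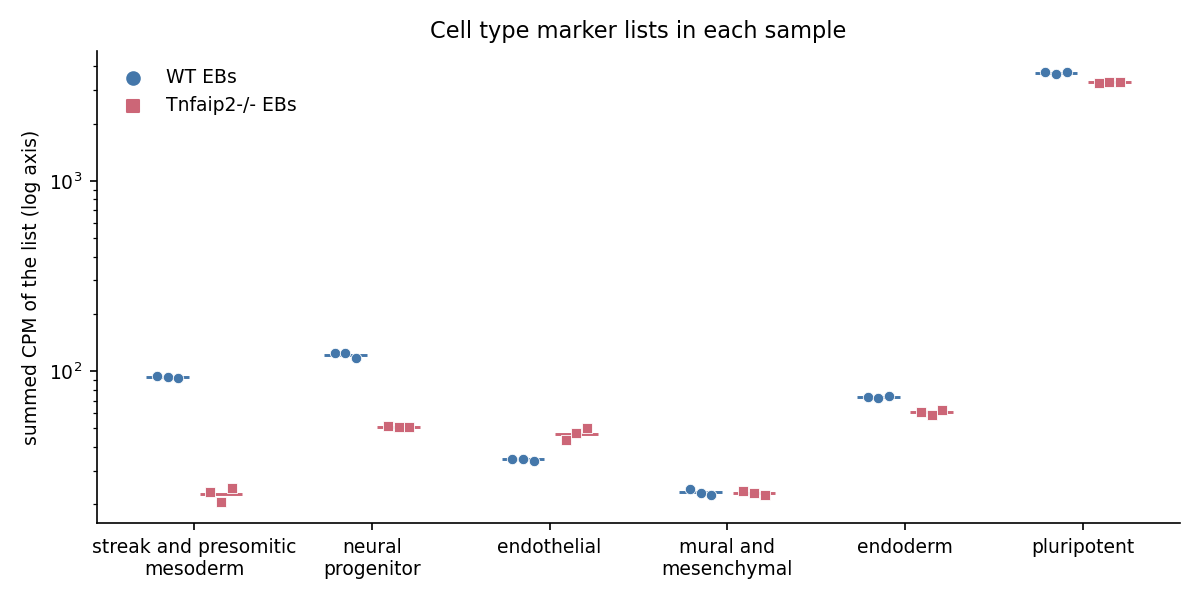
Summed CPM of 6 lists of cell type markers on a log axis, with 1 point per sample (circles, WT EBs; squares, Tnfaip2-/- EBs) and a line at the mean of each genotype. The means of WT and Tnfaip2-/- EBs are 93.2 and 22.7 CPM for streak and presomitic mesoderm, 121.9 and 50.9 for neural progenitors, 73.2 and 60.7 for endoderm, 3705 and 3298 for pluripotency, and 34.4 and 47.0 for endothelium, and the mural and mesenchymal sums overlap.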

How the data were processed

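RNA of EBs was prepared with the TruSeq RNA v2 kit, which does not keep the strand. The authors mapped reads to GRCm38 with TopHat2 2.1.0, counted unique reads per Ensembl gene with featureCounts 1.5.0, and deposited raw counts; the tool versions are from the processing notes of the submitters, and the strand setting was not given in the sources used here. Samples were grouped by the genotype in their labels.

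The analysis used edgeR 4.0.16 in R 4.3.3 (TMM factors, expression filter at 10 counts with a total of at least 15, robust quasi-likelihood F test with genotype as the term, Benjamini-Hochberg adjustment over all 17849 genes kept). The test was checked on simulated counts. The common biological coefficient of variation in this fit, the spread among samples of a genotype beyond counting noise, was 0.0215. In the deepest sample 3 counts, taken as the floor, equal 0.128 CPM, and intervals cover the fitted error only. Alternatives were DESeq2 1.42.0, other normalizations, a stricter filter or none, a replicate block, the legacy fit, a test against a fold change of 1.5, and each sample left out. Shares within families were compared by exact permutation over samples. Gene positions and exon lengths come from GENCODE M21.

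The members and gene lists were chosen with earlier results of these data known. Named genes were all members, Tnfaip2, a fixed set of close relatives in the pathway, further pathway genes called with at least a 2-fold change, and of each marker list the defining markers, the most abundant gene per kb, and the called gene that changed most. Hes2, Ep300, Snw1, Ncstn, Psenen, Slirp, Kat2b, Klf2, Zfp42, and Utf1 fall outside this rule and were named after their values were seen. Cyb5d2, Tmtc1, Cpne8, Pcolce, Tcl1, and Frmd4b also fall outside it and were chosen by their profiles over the samples.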

Additional observations from a re-analysis of the deposited data

How the results depend on the processing

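Among 1680 values from alternatives, 1627 met the rule for no change: the same call for a gene, with the same direction where it was called, a shift within the replicate spread for a share, and less than a 1.5-fold difference for a number of genes. The number of members called was 5 in every alternative but 2: it was 4 against a fold change of 1.5, without Notch3, and 6 without WT replicate 3, with Dll3. The 3 members called with at least a 2-fold change were the same genes in all alternatives. Notch2, not called in any alternative, had a log2 fold change of -0.01 without WT replicate 3. The log2 fold changes of Notch1, Dll1, Lfng, and Hes1 ranged from 0.74 to 0.89, -1.79 to -1.59, -1.66 to -1.34, and -1.17 to -1.09. Against a fold change of 1.5, 2798 genes and 12 other pathway genes were called in place of 12084 and 32, since this test asks for larger changes. When counts were divided by exon length before shares were taken, the difference of the shares, Tnfaip2-/- minus WT, was 7.65 percentage points for Notch1, 2.35 for Notch2, -3.86 for Notch3, -6.15 for Notch4, -18.0 for Dll1, -3.89 for Dll3, -0.669 for Jag1, 22.7 for Jag2, 2.48 for Hey1, and 0.676 for Hey2. All kept their direction, and the exact permutation p of Jag1 was 0.4 in place of 0.1. The Hes6 share had a p of 0.1 in place of 0.4.

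Replicate numbers did not pair the samples: after removal of genotype means, same-numbered samples had correlations of -0.0218, -0.0252, and -0.0324 across genes. With the number as a replicate block, 11841 genes, 5 members, and 31 other pathway genes were called, and Snw1 was the pathway gene that lost its call there. With 1 sample left out, between 11537 and 11744 genes were called. Depth limits Hes5, Hes7, Heyl, and Dll4, whose counts were too low to be tested, and widens the intervals of Lfng, Hes3, and Hey2.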

Other observations

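Dll1, Notch3, and Notch4, all lower in Tnfaip2-/- EBs, lie on chromosome 17, where the median log2 fold change of 791 tested genes was -0.25, against 0.0030 over all tested genes, and 55.8% of the genes were called lower. Other pathway genes tested on this chromosome are Kat2b, which was lower (log2 fold change -0.58), and Neurl1b, which was higher (1.37). The markers T and Pou5f1, both called lower, also lie there. Dll1 and Notch4 lie far below this median, with log2 fold changes of -1.69 and -1.68, and Notch3 close to it, at -0.21. As a look added after the values were seen, tested genes within 500 kb of each were read. The 12 around Dll1 had a median of -0.039 and a range from -0.58 to 0.33, the 15 around Notch3 had a median of -0.18 and a range from -1.02 to 2.47, and the 47 around Notch4 had a median of -0.029 and a range from -1.27 to 2.21. Dll1 and Notch4 were thus below all of their tested neighbors in this window, and Notch3 was within the range of its own. The part of the chromosome in these values was not tested.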
